A study of Homo sapiens with 3 samples.

Results

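Expression of 9 genes that regulate or mark the lung epithelial and neuroendocrine lineages was compared between H1975 cells and OR1 and OR2, its osimertinib-resistant derivatives. The genes are NKX2-1, FOXA1, FOXA2, SFTPB, NAPSA, HOPX, SOX2, TP63 and INSM1. They were taken by gene symbol from the arrays, with every non-control probe that carries the symbol, and make up 9 of 43316 genes and 13 of 58200 probes. H1975 is a non-small cell lung cancer cell line with mutated EGFR that is sensitive to osimertinib, an EGFR inhibitor. OR1 and OR2 were selected separately from it by raising the osimertinib dose in steps to 2 μmol/L over 4 months, and the methods describe them as resistant clones. All 3 lines were kept in RPMI medium with fetal bovine serum, and total RNA of each was hybridised to 1 single-colour Agilent array, with all 3 arrays on 1 slide. Without replicates no test between lines was possible, and precision is limited by the number of arrays.

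NKX2-1 is the homeobox factor that specifies lung and thyroid epithelium and is used by pathologists as a marker of lung adenocarcinoma. FOXA1 and FOXA2 are pioneer factors that open chromatin in foregut endoderm, and together with NKX2-1 they drive surfactant genes such as SFTPB and the aspartic protease NAPSA in alveolar type II cells. HOPX marks alveolar type I cells, TP63 and SOX2 are regulators of basal and squamous airway cells, and INSM1 is a zinc finger factor of neuroendocrine cells. Change from an adenocarcinoma to a squamous or neuroendocrine lineage is a known route of escape from EGFR inhibitors, which is the question that these genes address.

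Of the 9 genes, FOXA2 was the only one that was lower than in H1975 by at least the ratio of 2 in both resistant lines. NKX2-1 was lower in OR1 only and was above its H1975 level in OR2. NAPSA followed the order of NKX2-1, with OR1 lowest and OR2 highest. No gene of the 9 was higher by at least 2 in OR1 or in OR2. SFTPB, SOX2, TP63 and INSM1 were not well above background in any of the 3 lines, so no ratio was computed for them.

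The array probes are short stretches of the messenger RNA. The first 30 of the 60 bases are shown for the probes whose signals carry these differences and for the main FOXA1 probe, so that the measured transcript can be recognised. FOXA1 itself was not counted as lower or higher. They are written as on the array, in lower case since no base is singled out.
NKX2-1 probe: cagcccttcacattttttatgggcattgac
FOXA1 probe: attacaatgttggaggagagataagttata
FOXA2 probe: tccggtttccactactgtgtagactcctgc
NAPSA probe: ggcccatgattacgtcatccagactactcg
The promoter sequences below are the 250 bases before a RefSeq transcription start, on GRCh38.p14 and read 5′ to 3′ on the strand of the gene. They are shown because NKX2-1 and FOXA2, transcription factors themselves, were lower in at least 1 resistant line, and 3 of the genes measured here are given as examples with matches. Capitals mark the letters TGTTTAC or TGTTTGC, the core that FOXA factors recognise, and CTCAAG or CAAGTG, the core that NKX2-1 recognises, on either strand, so that the reverse complement is in capitals where the match is on the other strand.
NKX2-1, chr14:36519557-36519806, strand -: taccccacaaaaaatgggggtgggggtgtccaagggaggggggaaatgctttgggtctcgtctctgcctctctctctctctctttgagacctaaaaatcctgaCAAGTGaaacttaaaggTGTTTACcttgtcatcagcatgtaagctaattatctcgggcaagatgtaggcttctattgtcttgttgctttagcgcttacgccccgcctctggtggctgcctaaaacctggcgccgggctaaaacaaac
FOXA1, chr14:37595250-37595499, strand -: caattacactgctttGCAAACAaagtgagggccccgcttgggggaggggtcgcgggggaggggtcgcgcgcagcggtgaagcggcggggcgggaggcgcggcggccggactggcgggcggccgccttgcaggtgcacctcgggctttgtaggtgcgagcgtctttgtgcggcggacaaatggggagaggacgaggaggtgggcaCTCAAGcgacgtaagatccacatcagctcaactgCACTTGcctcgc
NAPSA, chr19:50369303-50369552, strand -: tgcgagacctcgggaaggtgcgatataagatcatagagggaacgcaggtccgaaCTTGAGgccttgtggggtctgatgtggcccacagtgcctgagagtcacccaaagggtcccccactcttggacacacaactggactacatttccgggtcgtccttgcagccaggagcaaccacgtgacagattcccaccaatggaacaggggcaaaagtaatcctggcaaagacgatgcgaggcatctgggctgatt
The NKX2-1 sequence precedes the downstream one of its 2 starts, and in it CAAGTG begins 147 bases and TGTTTAC 130 bases before the start. In FOXA1, a FOXA core lies 235 bases and NKX2-1 cores lie 46 and 12 bases before the start. NAPSA holds an NKX2-1 core 196 bases before its upstream start. Promoter entries were found for 7 of the 9 genes, all but FOXA2 and INSM1. The upstream start of NKX2-1 and one start of HOPX also held a FOXA core, 241 and 9 bases before the start, and TP63 held an NKX2-1 core at 192 bases. No match was found in either SFTPB window, in SOX2, in the other HOPX window or in the other NAPSA window. Among 35116 promoter windows of this length, 6.09% held a FOXA core and 18.3% an NKX2-1 core. A match of these letters is a description of the sequence, and binding was not measured.

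The brightness of a spot after the scanner software's background correction is its intensity. To compare arrays, the 75th percentile of each array was subtracted on the log2 scale, an intensity of 157, 138 and 162 for H1975, OR1 and OR2. The software called 26519, 26735 and 26675 probes well above background in H1975, OR1 and OR2, and the lowest intensity so called was 12.6, 11.4 and 12.6. A gene below that level on one side of a ratio was set to it, or to its own intensity where that was higher, and such ratios are given as bounds ("at least" or "at most"). A gene was counted as higher at a ratio of at least 2 and as lower at a ratio of at most 0.5, the ratio of the study's methods. Errors are technical SDs on the log2 scale, propagated from the software's error of each spot, with a median of 0.21 in both lines. They describe how well 1 RNA sample was measured and leave out differences between cultures. All 8 epithelial markers examined, among them EPCAM, CDH1, KRT8 and KRT18, were well above background in each line.

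**Figure D1:**
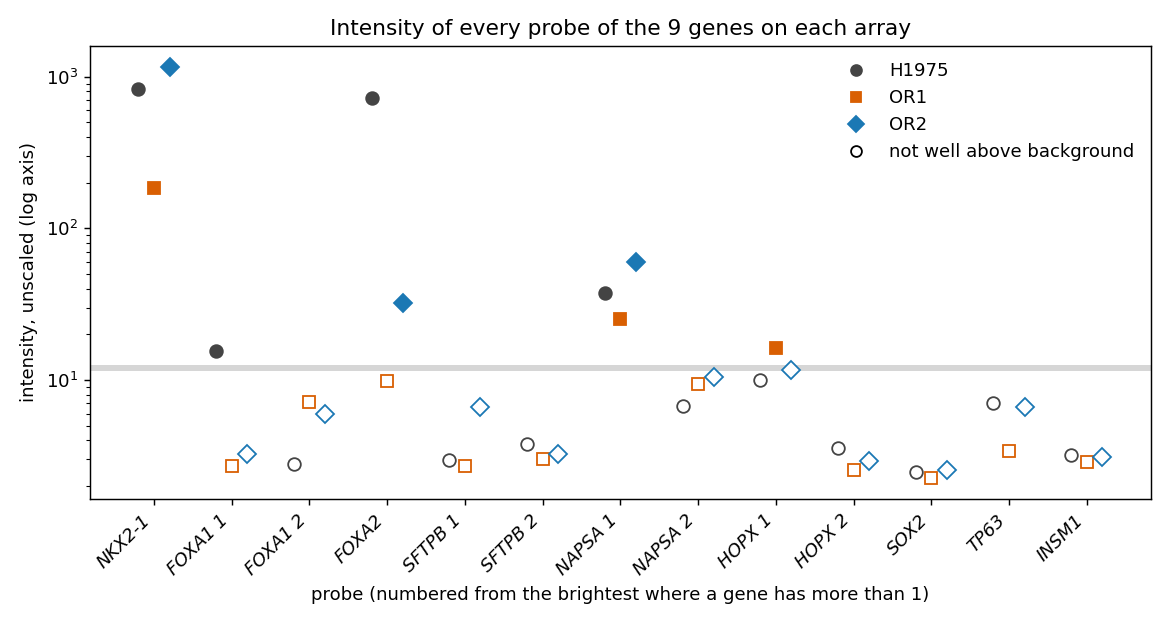
Intensity of the 13 probes of the 9 genes on each array, before scaling and on a log axis. Filled symbols were well above background, open symbols were not, and the grey band spans the lowest intensities called well above background, 11.4 to 12.6. NKX2-1 and NAPSA were above the band in all 3 lines, while FOXA2 was bright in H1975 and far lower in OR1 and OR2.

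Among the transcription factors of lung epithelium, NKX2-1 was measured by a single probe (NM_003317) on chromosome 14 of hg19 from 36985718 to 36985777. NKX2-1 intensities in H1975, OR1 and OR2 were 832, 184 and 1167. OR1 was thus the low line, and OR2 was slightly above H1975. The ratio to H1975 was 0.252 in OR1 and 1.36 in OR2, or -1.99 and 0.45 on the log2 scale, each with a technical SD of 0.20. The difference in OR1 is about as large as a ratio of 4 and far beyond the technical SD, while the one in OR2 did not reach the ratio of 2. Between the resistant lines, NKX2-1 was 5.42-fold higher in OR2 than in OR1. In a population of cells, fewer cells with NKX2-1 and less NKX2-1 RNA per cell cannot be told apart. Scaling on the spike-in probes moved the ratio in OR1 to 0.166 and the ratio between the lines to 8.65.

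FOXA2 (NM_021784), on chromosome 20 from 22562164 to 22562223, gave intensities of 720 for H1975, 9.77 for OR1 and 32.0 for OR2. It was not well above background in OR1 and was low but measured in OR2. The FOXA2 ratio was at most 0.0181 in OR1 and 0.0432 in OR2 (technical SD of the log2 value 0.25). Without the background limit the ratio in OR1 was 0.0155, with a technical SD of the log2 value of 0.46. FOXA2 was at least 2.39-fold higher in OR2 than in OR1, although both lines were far below H1975. With the normexp background correction, which adds an offset to all intensities, the ratio was at most 0.101 in OR1 and 0.117 in OR2, and FOXA2 was only at least 1.15-fold higher in OR2 than in OR1.

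FOXA1 (NM_004496) lies on the same chromosome as NKX2-1, and its main probe, from 38059546 to 38059605, was spotted 10 times on each array. Averaged over the kept spots, H1975 had an intensity of 15.5, OR1 of 2.71 and OR2 of 3.25. In H1975 the kept spots ranged from 8.92 to 19.1 with a median of 16.5, and 7 of 9 were well above background. The remaining H1975 spot was marked as an outlier, at 173, and was left out. In OR1 the 10 spots ranged from 2.30 to 3.24 with a median of 2.74, and in OR2 from 2.62 to 4.08 with a median of 3.18. None of these 20 spots was well above background, and for 8 in OR1 and 6 in OR2 the software had replaced the signal by a surrogate value set from the background noise. The H1975 spots did not overlap those of either resistant line. Because H1975 itself was close to the background limit, the ratio could only be bounded, by 0.840 in OR1 and by 0.793 in OR2 from above, and FOXA1 was not counted as lower. Without the background limit the log2 ratios were -2.32 and -2.29, values that rest on the surrogates. The second FOXA1 probe (ENST00000557418, 38064461 to 38064520) was near background on every array, with 2.80 for H1975, 7.18 for OR1 and 5.97 for OR2. All 60 bases of this probe lie in the promoter sequence shown above, from 66 to 7 bases before the RefSeq start, so that it does not measure a FOXA1 transcript that begins at this start.

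**Figure D2:**
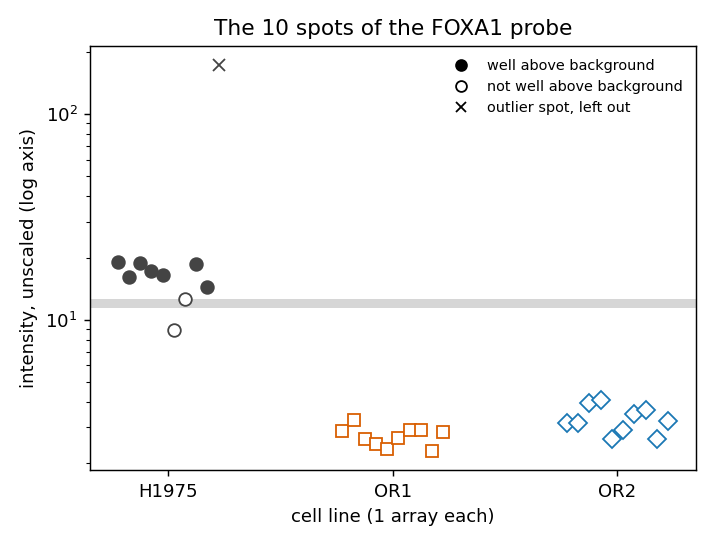
Intensity of each of the 10 spots of the main FOXA1 probe on the 3 arrays, on a log axis, with the grey band at 11.4 to 12.6 as the lowest intensities called well above background. Spots of 1 array are repeats of 1 RNA sample. The 9 kept H1975 spots, 8.92 to 19.1, were all above the OR1 and OR2 spots, which reached 3.24 and 4.08.

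Among the targets and markers of the alveolar lineage, NAPSA (NM_004851), the protease that processes surfactant protein B, had its brighter probe on chromosome 19 from 50862000 to 50862289. NAPSA intensity was 37.2 for H1975, 25.1 for OR1 and 59.8 for OR2, the same order of lines as NKX2-1. The ratio to H1975 was 0.770 in OR1 (log2 -0.38, technical SD 0.28) and 1.57 in OR2 (log2 0.65, technical SD 0.25), neither past the ratio of 2. OR2 was 2.03-fold above OR1, with a log2 difference of 1.02 and a technical SD of 0.27. This call lies at the threshold. It was lost at a ratio of 1.26 with normexp and at 1.39 with the median over both probes, where the OR1 ratio turned to 1.11. The other NAPSA probe (50864208 to 50864267) stayed near background, at 6.69, 9.34 and 10.4.

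SFTPB, which encodes surfactant protein B, had both its probes on chromosome 2 near the background on all arrays. The probe from 85885413 to 85885472 gave intensities of 2.98, 2.72 and 6.67 in the order H1975, OR1 and OR2, and the probe from 85885985 to 85886044 gave 3.77, 2.99 and 3.24. Thus, SFTPB was not detectable in H1975 either, and a decrease could not have been measured. HOPX, an atypical homeodomain protein, was well above background in OR1 alone, by its probe (NM_001145460) on chromosome 4 from 57516850 to 57516909. HOPX intensity was 10.0 for H1975, 16.1 for OR1 and 11.6 for OR2, which puts OR1 at least 1.46-fold over H1975. Without the background limit the ratio was 1.83, or 0.87 on the log2 scale with a technical SD of 0.50. Neither the bound nor this value reached the ratio of 2. The other HOPX probe, from 57514443 to 57514502, gave 3.53, 2.56 and 2.90 and was at background.

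The regulators of other lineages were well above background in neither the sensitive nor the resistant cells. SOX2, on chromosome 3 from 181431877 to 181431936, had intensities of 2.48, 2.26 and 2.53 for H1975, OR1 and OR2, all surrogate values. INSM1, on chromosome 20 from 20351123 to 20351182, had 3.21, 2.88 and 3.11, again surrogate values on each array. TP63, on chromosome 3 from 189586433 to 189586492, gave 7.06, 3.42 and 6.67, which the software took as signal but not as well above background. Neither the squamous regulators nor INSM1 were measurable in OR1 or OR2. An increase that stayed below an intensity of about 12.6 was not detectable, and each of the 3 genes was read by 1 probe. Values slightly above 12.6 can also miss the call, as the neuroendocrine gene SCG2 did at 14.3 in H1975.

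H1975 had 4 of the 9 genes well above background, OR1 had 3 and OR2 had 3, and the 5 genes measured in at least 1 line were NKX2-1, FOXA1, FOXA2, NAPSA and HOPX. Each count is out of the genes of the 9 measured in that comparison, and each share is out of all genes measured in it. In OR1, 2 of 5 were lower (NKX2-1 and FOXA2), against 9.58% of all genes, and 0 were higher, against 9.17%. In OR2, 1 of 4 was lower (FOXA2), against 8.7%, and 0 were higher, against 7.72%. For both lines together the counts were 1 of 5 lower, against 6.32%, and 0 higher, against 5.09%. From OR1 to OR2, 3 of 4 were higher (NKX2-1, FOXA2 and NAPSA), against 2.48% of all genes, and 0 were lower, against 2.89%. The 5 measured genes are too few for these shares to be more than a description, and the ratios of OR1 and OR2 share the H1975 array.

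NKX2-1 and FOXA1 lie 1.07 Mb apart on chromosome 14, and 16 other genes between and around them were examined for a common shift. Their probes lie from -0.98 to 2.67 Mb from that of NKX2-1, so that the list reaches beyond both genes. Of these, 10 were measured in 1 line or more. The nearest, SFTA3, which is also known as a surfactant-associated gene, lies 0.04 Mb from NKX2-1 and showed its order of lines. SFTA3 intensity was 174 for H1975, 85.2 for OR1 and 365 for OR2, so that OR1 had a ratio of 0.557, OR2 one of 2.04, and OR2 was 3.65-fold over OR1. With normexp the OR2 value was 0.82 on the log2 scale, under the ratio of 2. On the other side, PAX9, a paired-box factor of foregut pouches, was lower in both lines, with intensities of 130, 44.2 and 37.6 and ratios of 0.387 and 0.281. SLC25A21, a mitochondrial carrier, was also lower in both lines, with ratios of at most 0.410 and at most 0.387. With normexp neither was counted as lower in both lines. The remaining genes stayed within the ratio of 2. MBIP had ratios of 0.940 in OR1 and 1.16 in OR2, RALGAPA1 1.11 and 1.55, and BRMS1L 0.935 and 1.60. Beyond PAX9, MIPOL1 had 0.804 and 0.635, SEC23A 1.23 and 1.70, GEMIN2 1.12 and 1.09, and PNN 1.53 and 1.61. In OR1, SFTA3, PAX9 and SLC25A21, the measured genes nearest to NKX2-1, had lower ratios than MBIP, BRMS1L, RALGAPA1 and MIPOL1, farther away. Of these nearest genes, SFTA3 was not counted as lower in OR1, and the SLC25A21 ratio is a bound. In OR2, NKX2-1 had a ratio of 1.36 and SFTA3 one of 2.04, while PAX9 and SLC25A21 were again counted as lower. Whether the ratios depend on the distance from NKX2-1 was not tested. NKX2-1-AS1, NKX2-8, TTC6, SSTR1, CLEC14A and TRAPPC6B were not well above background. Around FOXA2, the log2 ratios of the 20 nearest genes had medians of 0.41 for OR1 and 0.15 for OR2, opposite in sign to FOXA2 itself. For the 20 genes nearest to NKX2-1 the medians were -0.09 and -0.05, and for the 9 genes of the chromosome 14 list measured in all lines they were -0.09 for OR1 and 0.63 for OR2. The DNA of these lines was not measured, and its part in these ratios was not tested.

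**Figure D3:**
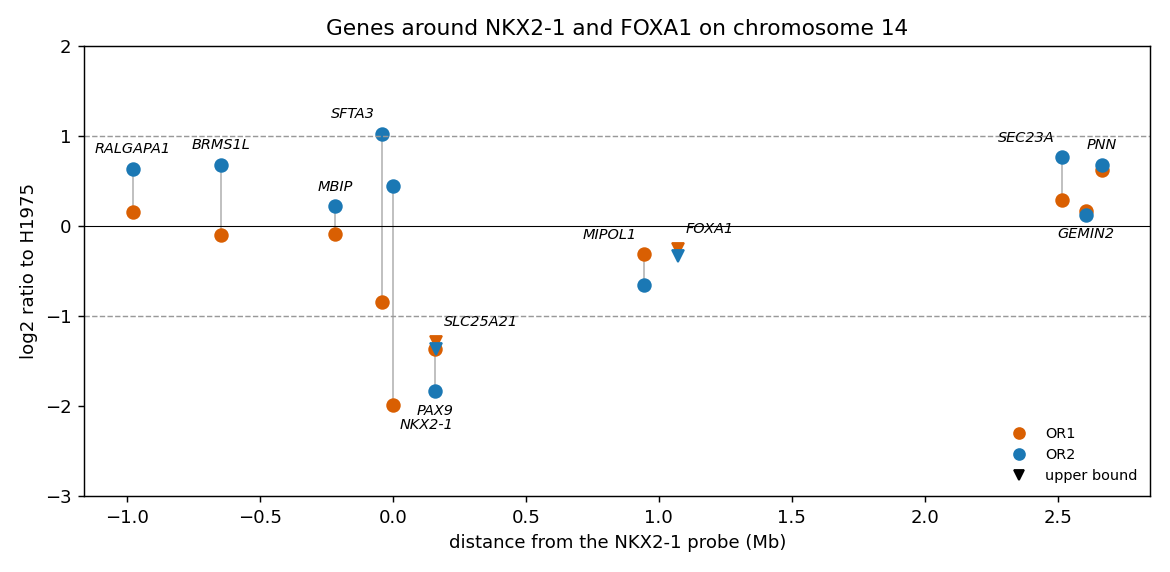
Log2 ratio to H1975 of the genes around NKX2-1 and FOXA1 measured in 1 line or more, against the distance of their probe from that of NKX2-1 in Mb. Grey lines join OR1 and OR2, triangles are upper bounds, and dashed lines mark ratios of 2 and 0.5. NKX2-1 and SFTA3 had the widest gaps between the lines, while PAX9 and SLC25A21 were low in both.

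Other genes of the same lineages were read from lists that do not hold the 9 genes. Of 28 surfactant and alveolar genes, 20 were measured on at least 1 array, 4 were higher in both lines (SUSD2, SFTPC, ABCA3 and FOLR1) and 3 were lower in both (CTSH, LAMP3 and RTKN2), against 5.09% and 6.32% of all genes. LAMP3 and RTKN2 were not counted with normexp or when all 3 arrays had to pass, which left 1 lower gene. Over those measured on all arrays, median log2 ratios were -0.17 (OR1) and -0.09 (OR2), against 0.03 and -0.05 over all genes. SUSD2, a membrane protein of type II cells, was at 113, 2101 and 3787 in the 3 lines, ratios of 21.2 and 32.6. SFTPC, surfactant protein C, was at 24.0, 79.6 and 120, ratios of 3.78 and 4.87, which normexp reduced to 0.91 on the log2 scale in OR1, below the ratio of 2. CTSH, cathepsin H, which like NAPSA processes surfactant proteins, was at 4823, 167 and 709, ratios of 0.0395 and 0.143. Alveolar genes thus lay on both sides of H1975. Between the resistant lines, the OR2 to OR1 ratios of the 4 higher genes were 1.54 for SUSD2, 1.29 for SFTPC, 0.966 for ABCA3 and 0.471 for FOLR1, so that FOLR1 alone of these 4 passed the ratio. Over the whole list, 3 genes were higher in OR2 than in OR1, among them SFTA3 at 3.65 and CTSH at 3.62, and 1 was lower (FOLR1). The shares over all genes in this comparison were 2.48% and 2.89%. SCGB1A1, the club cell secretoglobin, had ratios of 0.844 and 0.840, and SFTPA1 was not well above background.

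Of 30 further transcription factors of lung and foregut, 18 were measured, 0 were higher in both lines and 2 were lower in both, against 5.09% and 6.32% of all genes. GRHL2, a grainyhead factor that maintains epithelial junction genes, had intensities of 467, 2.34 and 2.58 for H1975, OR1 and OR2, ratios of at most 0.0278 and at most 0.0263. IRX2 was at most 0.428 and at most 0.405, a call that was lost with normexp and with the median over probes. GATA6, an endoderm factor, differed little, with ratios of 1.08 and 0.959. CEBPA, a factor of type II cell maturation, was at 92.7, 108 and 220, ratios of 1.33 and 2.31, and with spike-in scaling the OR1 value turned to -0.19 on the log2 scale. With normexp the OR2 value was 0.83, under the ratio of 2. GRHL2 was thus measured in H1975 alone, while FOXA2 was still measured in OR2.

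Although TP63 and SOX2 were not well above background, some genes of basal and squamous cells were measured and passed the ratio. Of 30 such genes 22 were measured, with 5 higher in both lines (KRT14, KRT17, TRIM29, KRT16 and KRT13) and 6 lower in both, among them SERPINB5, SPRR3, IVL, SPRR1B and PERP. The shares over all genes were 5.09% and 6.32%. With spike-in scaling 3 rather than 5 were higher in both, and 2 rather than 6 were lower when all 3 arrays had to pass. The median log2 ratio of the 15 measured in all lines was 0.12 for OR1 and -0.04 for OR2. The 5 that were higher are named because they complete the count, 4 of them keratins. KRT17 had ratios of 23.6 and 13.7, KRT14 18.2 and 10.3, and TRIM29 30.8 and 10.0. SERPINB5 (maspin) was at 2816, 64.3 and 88.4, ratios of 0.0260 and 0.0306. SPRR3, a cornified envelope protein, had ratios of at most 0.0453 and 0.0485. KRT5, the partner keratin of KRT14, was not well above background.

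Of 38 neuroendocrine genes, 20 were not well above background on any array, among them NEUROD1, a transcription factor of neuroendocrine differentiation. Of the 18 that were measured, 1 was higher and 1 was lower in both lines, near the 5.09% and 6.32% of all genes. SCG2, a secretogranin, was at 14.3 in H1975, too low to count as measured, and reached 139 in OR1 and 74.5 in OR2, ratios of at least 11.1 and at least 5.08. With normexp the SCG2 bound in OR2 was 0.77 on the log2 scale and the call was lost. MYCL was at most 0.315 and at most 0.298, also lost with normexp, and with the median over probes no gene of the list was lower in both lines. Over the 10 genes of the list measured in all lines, which include YAP1, REST and RB1 that many cell types express, the median log2 ratios were 0.21 and 0.22. POU2F3, the tuft cell factor, had ratios of at least 1.21 and at least 1.53. YAP1 was at 1387, 2118 and 1665, ratios of 1.74 and 1.17, and REST, a repressor of neuronal genes, had ratios of 1.08 and 0.735, which spike-in scaling turned to -0.49 on the log2 scale in OR1.

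**Figure D4:**
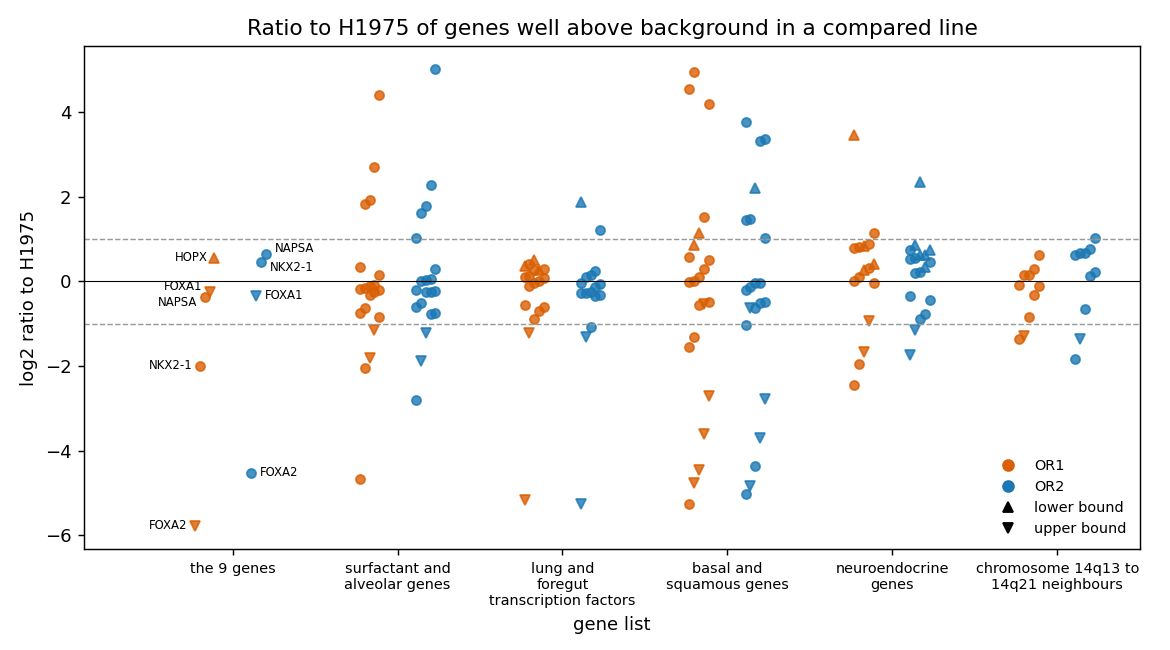
Log2 ratio to H1975 in OR1 and OR2 for the 9 genes and the 5 lists, with 1 point per gene that was well above background in H1975 or in the line compared. Triangles are bounds, dashed lines mark ratios of 2 and 0.5, and points are spread sideways only for legibility. FOXA2 lay below -4 in both lines, NKX2-1 was low in OR1 alone, and each list held genes on both sides of 0.

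Markers of cell identity were read on the same arrays. Of the 8 epithelial markers, 6 were lower in both lines, with EPCAM at 0.0370 and 0.0725 and CDH1 at 0.0205 and 0.0800, while KRT8 had ratios of 1.12 and 0.964 and KRT18 0.884 and 0.806. Their summed intensity was 463787, 158363 and 200969 in the order H1975, OR1 and OR2. Of the other cell types, 3 of 5 haematopoietic markers, 3 of 5 endothelial markers and 4 of 8 fibroblast markers were measured on 1 array or more. The haematopoietic sum was 582, 1224 and 2184 in the same order, carried by CD14 with ratios of 4.25 and 6.56, while PTPRC had ratios of 1.12 and 0.949 and CD3E was at background. The endothelial sum was 97.0, 104 and 110. The fibroblast sum was 692, 690 and 110, carried by COL1A1 with ratios of 1.45 and 0.183 and COL1A2 with 0.162 and at most 0.0615. FAP was measured in H1975 alone, and LUM in OR1 alone, at least 5.43-fold over H1975. COL3A1, DCN, PDGFRA and THY1 were at background in each line. The part of these markers in the results for NKX2-1, FOXA2 and NAPSA was not tested.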

How the data were processed

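Total RNA of H1975, OR1 and OR2 was amplified, labelled with Cy3 and hybridised by the authors to 1 Agilent array per line. The deposited scanner files hold the intensity of each spot after background correction by Agilent Feature Extraction, which is version 9.5.1.1 per the labels and 10.7.1.1 per the file headers, without scaling between arrays. The authors also deposited a table of normalized intensities, whose method is not given in the sources used here. It served as an alternative.

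Control spots and outlier spots were left out, repeated spots were averaged on the log2 scale, and the 75th percentile of each array was subtracted. A gene was read by its probe with the highest mean, and a probe spotted repeatedly was well above background if over 50% of its kept spots were. Probe positions are on hg19 and promoters on GRCh38.p14, both as given, and 12 of the 13 probes carry a RefSeq accession that the RefSeq table lists under the same symbol. The lists and the 9 genes were chosen with earlier results of these data known. The text names the 9 genes, from each list the 3 genes with the largest change in the less changed line, a few lineage genes set beforehand, and the measured chromosome 14 neighbours, except for some genes that are not reported here. ABCA3, FOLR1, LAMP3, RTKN2, KRT14, KRT17, TRIM29, KRT16, KRT13, IVL, SPRR1B, PERP and the cell markers are named besides, after their values were seen.

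As alternatives, arrays were left unscaled or scaled by quantiles, by the median or by 7 spike-in probes. Background was corrected by normexp with an offset of 50, or the authors' table was used. Further alternatives required all 3 arrays to pass the background filter or applied no filter. The others were outlier spots kept, the median over probes, and a ratio of 1.5 or 4. The ratio calculation was tested on simulated data. Python 3.11.15, numpy 2.4.6, pandas 2.3.3, R 4.3.3 and limma 3.58.1 were used.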

Additional observations from a re-analysis of the deposited data

Results flagged for a closer look

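Flagged, with the cell markers left out, were 3 genes whose ratios to H1975 had opposite directions in OR1 and OR2. They also differed between the lines by more than a ratio of 2. Other genes, such as MBIP and GATA6, also had opposite directions but with a smaller gap. The fibroblast marker COL1A1, which was not flagged, had a wider gap in the other direction, from 0.54 in OR1 to -2.45 in OR2 on the log2 scale. For NKX2-1, OR2 exceeded OR1 by 2.44 on the log2 scale, from -1.99 in OR1 to 0.45 in OR2. For SFTA3, its neighbour on chromosome 14, the gap was 1.87, from -0.84 to 1.03. For NAPSA the gap was 1.02, from -0.38 to 0.65. With the median over both probes NAPSA had the same direction in both lines, 0.15 in OR1 and 0.62 in OR2. These differences between the lines were not tested, since each line has 1 array, and variation between cultures and a lasting difference between OR1 and OR2 cannot be told apart.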

How the results depend on the processing

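FOXA2 as the single gene lower in both lines gave way to 0 genes when all 3 arrays had to be well above background, since FOXA2 was not measured in OR1, and to 2 without a background filter, with FOXA1 added. The 3 genes that differed between OR1 and OR2 became 1 with normexp and 1 at a ratio of 4, NKX2-1 in both cases. No alternative gave a gene of the 9 higher in both lines. Of 116 values of the 9 genes under alternatives, 97 stayed within the technical SD, 19 moved and 0 changed the direction of a called value, and of 501 values of the other named genes 437 stayed and 64 moved. Where a value moved, no cause was tested, and a filter or a ratio changes a count by construction. The median log2 ratio over all genes in OR1 shifted by -0.60 under spike-in scaling, by -0.19 without scaling and by -0.11 under median scaling. The slide could not be a block because all 3 arrays share it, and leaving out a replicate was not possible with 1 array per line. No paired analysis was possible because each line has 1 array. Intensity over background limits FOXA1, SFTPB, HOPX, SOX2, TP63 and INSM1.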
